A study of Salmo salar with 18 samples.

Results

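The comparison set out here is that of liver transcript levels in Atlantic salmon held at the same high temperature under lowered or full oxygen. It rests on 12 of the 18 arrays of the study, 6 of Warm & Hypoxic (WH) fish and 6 of Warm & Normoxic (WN) fish, with the treatment read from the sample titles. Water of WH fish stood at 70% air saturation and 20 °C, that of WN fish at 100% and the same 20 °C, and that of the Control (CT) fish of the other 6 arrays at 100% and 12 °C throughout. For WH fish the oxygen was brought down over 1 week and held for 2 weeks before the warming began. Both warm groups were then warmed by 1 °C per week and sampled 3 days after 20 °C was reached. The fish were post-smolts (seawater-adapted juveniles) of 138.1 ± 1.1 g (mean ± SE) at the start, and every treatment had 2 tanks with 3 fish from each on the arrays. RNA of each liver was labelled with Cy5 and hybridised against a pool of all 18 fish labelled with Cy3, so every level below is the log2 of fish over pool. A difference is WH minus WN on this log2 scale, where 1 is a doubling and a negative value means lower in WH fish. Warmth is shared by WH and WN fish. Only WH fish were at lowered oxygen, both before and during the ramp, and these parts of the treatment cannot be told apart.

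Vertebrate cells sense oxygen mainly through prolyl hydroxylases (the EGLN enzymes), which mark the alpha subunits of hypoxia-inducible factor (HIF) for destruction while oxygen is plentiful. When oxygen falls, HIF persists and turns on genes of glycolysis, oxygen transport and mitochondrial restraint. Much of this control acts on the HIF protein, which an array does not see. The liver is the organ in which salmon store and release glucose, make plasma proteins and break down amino acids, and warm water raises its oxygen demand.

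No probe differed between WH and WN fish after adjustment. Of 23846 probes tested with limma, 0 were called at an adjusted p under 0.05 (0% of probes), and the smallest adjusted p was 0.411. At an unadjusted p under 0.05 there were 1377 probes (5.77%), of which 792 were higher (3.32%) and 585 lower (2.45%) in WH fish. In the same fit, 1226 probes (5.14%) were called for WH v CT and 1179 (4.94%) for WN v CT, 2 comparisons that share the CT fish. The median difference over all probes was 0.03, the central 98% of probes lay between -0.72 and 0.74, and 94 probes differed by more than 1 in size, 48 higher and 46 lower in WH fish. The fits treat tank-mates as independent, whereas oxygen was set per tank, and the p-values measure the spread among these fish. As the samples are bulk liver, fewer cells of a type and less RNA per cell cannot be told apart.

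**Figure D1:**
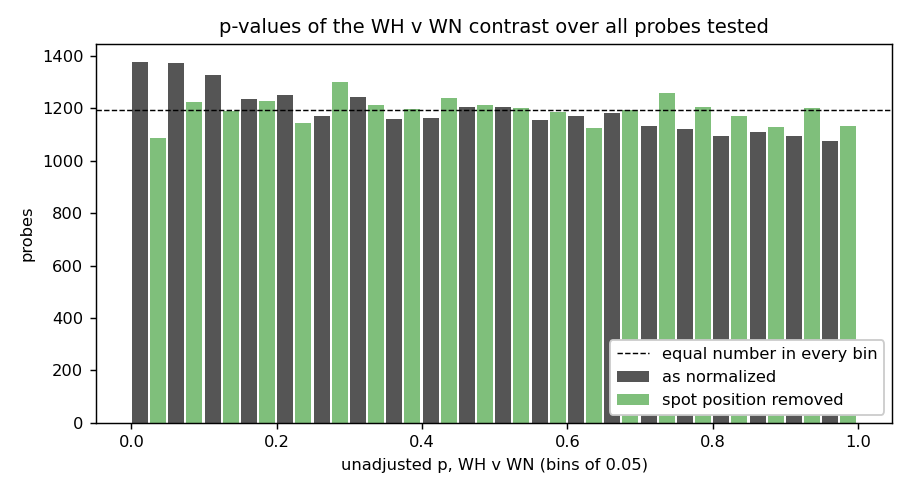
Number of probes (y axis) in each bin of unadjusted p for WH v WN (x axis, bins of 0.05), as normalized and after the spot position was removed, with a dashed line at equal numbers in all bins. The lowest bin holds 1377 probes as normalized and 1086 with the spot position removed.

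What 6 against 6 fish can show is set by the spread between fish. The median SE of a difference was 0.26, and the median 95% interval reached 0.53 to either side, a 1.44-fold difference. The interval lay wholly within -1 to 1 for 82.7% of the probes and within -0.5 to 0.5 for 9.44%. For most probes a doubling or halving thus lies outside the interval, whereas a difference of 0.5 does not. At the median SE, a lone probe would have needed a difference of 1.62 (3.08-fold) to pass the adjusted threshold, and 1.13 (2.19-fold) if 100 probes passed together. Differences above 1.62 in size were measured, but on probes with an SE above that median. An absence of calls is therefore no sign that the warm groups were alike for changes below these sizes.

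The differences followed the position of the spots on the array, and this touches most of the gene groups below. Over the 17 rows nearest one edge (rows 1 to 17 of 170) the median difference was 0.28, and 11.4% of probes were higher in WH fish at an unadjusted p under 0.05, against 0.392% lower. Over rows 154 to 170 the median was -0.13, with 0.27% higher and 7.06% lower. The deposited table of the authors held the same slope, with medians of 0.33 and -0.10. In single arrays, the median of the first 17 rows minus that of the last 17 was 0.26 in WH arrays (lowest -0.00057, highest 0.51), -0.07 in WN arrays (-0.94 to 0.41) and 0.23 in CT arrays (0.0019 to 0.71). The arrays of WN-2 (-0.94) and WN-1 (-0.45) lay below all others, and without these 2 the medians of the first and last band were 0.08 and -0.04. When a smooth surface over rows and columns was removed from each array, an alternative chosen after the slope was seen, 0 probes were called (smallest adjusted p = 0.894), and 1086 (4.55%) had an unadjusted p under 0.05, 471 higher (1.98%) and 615 lower (2.58%) in WH fish. Values after this removal are given below as position-corrected. The number after R in a probe's name is its row.

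**Figure D2:**
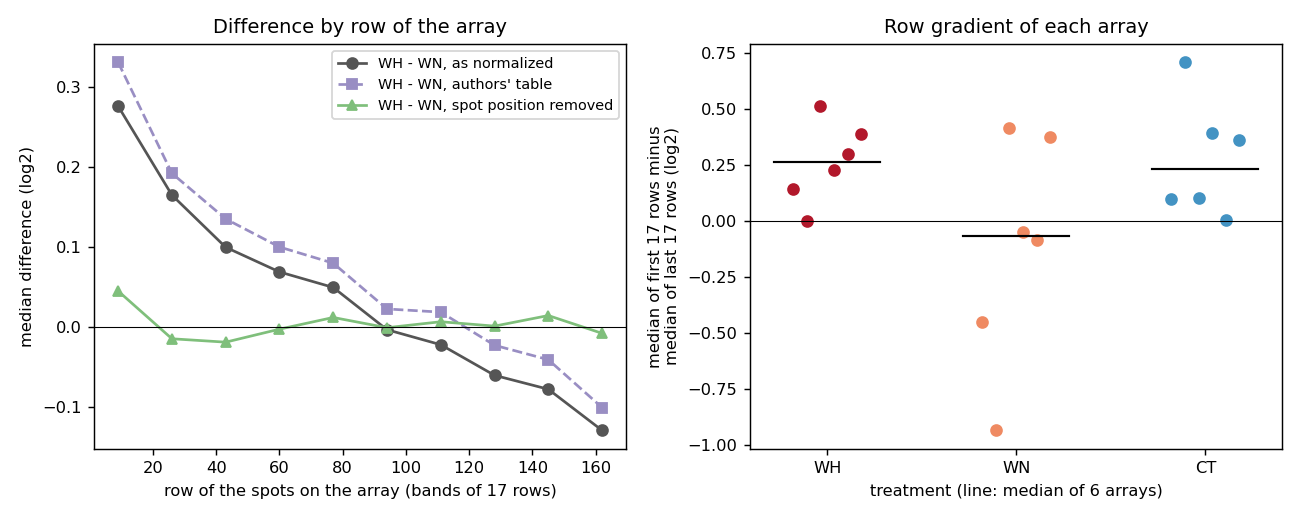
Left, median WH minus WN difference (y axis, log2) in bands of 17 rows of spots (x axis), as normalized, in the authors' table and after the spot position was removed; right, for every array, the median of the first 17 rows minus that of the last 17 (y axis, log2) by treatment, with a line at the median of 6 arrays. The difference goes from 0.28 in the first band to -0.13 in the last, and WN-2 lies lowest at -0.94.

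Gene names were available for 1497 of the probes tested, through the study's list of probes that differed between WN and CT fish on these arrays and its 41 qPCR genes, of which 40 were tested here on their array probes and dnmt1 was not. The list was held in part, without the probes of its largest decreases in WN fish, and that of WH v CT was not used here, so the names are one-sided. The WN fish enter both the choice of these probes and the difference described here, so its direction is not independent of that choice. Of all probes, 1.86% were called higher and 3.08% lower in WN than in CT fish. Among the entries called lower in WN than in CT fish (368 probes), the median WH minus WN difference was 0.16, with 53 higher and 2 lower in WH fish at an unadjusted p under 0.05. Among those called higher in WN than in CT fish (367 probes), the median was -0.07, with 8 higher and 25 lower. No named probe of the hepatocyte, exocrine pancreas and endothelial markers or of the iron list was tested, so the label of the tissue could not be checked against its defining markers. Of the markers listed for other cells, 5 leukocyte probes differed by -0.01 to 0.52, the 2 erythrocyte probes of ALAS2, which starts haem synthesis in red cells, by -0.09 and 0.21, COL1A1 of fibroblasts by -0.23 and KRT8, listed for bile ducts, by -0.11, none at an unadjusted p under 0.05. Whether KRT8 sets bile ducts apart from other liver cells was not tested. Atlantic salmon carry many genes in near-identical copies from a genome duplication, and a probe may bind RNA of more than one copy.

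**Figure D3:**
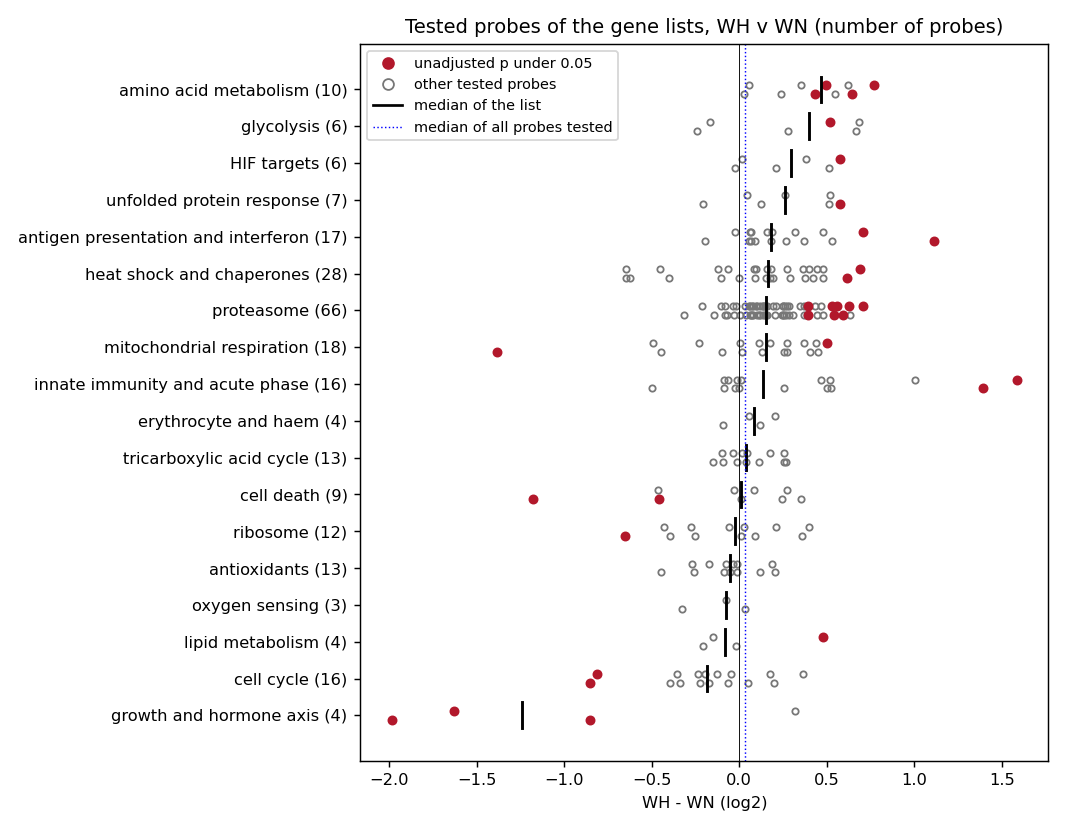
WH minus WN difference (x axis, log2) of every tested probe of 18 gene lists (y axis, number of probes in parentheses), with filled points at an unadjusted p under 0.05, a bar at each list's median and a dotted line at the median of all probes tested, 0.03. The growth and hormone list (4 probes of 3 genes) lies lowest with a median of -1.24, and the amino acid list (10 probes of 7 genes) has the highest median, 0.46.

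The 3 tested probes of the oxygen sensing list, of hif1α, EGLN1 and egln2, had intervals within -1 to 1 for WH against WN fish. hif1α (C120R146), the oxygen-regulated subunit of HIF, had values of -1.0, -0.56 and -0.29 in WH fish (lowest, median, highest), against -0.74, -0.21 and 0.10 in WN fish, with CT fish at 0.06, 0.29 and 0.88. The warm groups overlapped, and both lay mostly below the CT fish. The difference was -0.33 (95% interval -0.74 to 0.08, limma unadjusted p = 0.114, adjusted p = 0.862), and -0.23 position-corrected. On its own against CT, hif1α was called in WH fish (-0.95, adjusted p = 0.00536) and not in WN fish (-0.62, adjusted p = 0.0748), so that a call in one group alone stood beside a direct difference that did not pass. EGLN1 (C212R089), the main prolyl hydroxylase of HIF in mammals, had -0.44, 0.13 and 1.12 in WH fish and -0.15, 0.33 and 0.56 in WN fish, a difference of -0.07 (-0.57 to 0.42). Its paralogue egln2 (C079R030) had -1.17, -0.26 and 0.23 in WH fish and, on the 4 WN arrays with a value, -1.35, -0.30 and 0.26, a difference of 0.03 (-0.65 to 0.71). For egln2 the position-corrected difference had the other sign, -0.17. Against CT, egln2 was -1.01 in WH fish (adjusted p = 0.0474) and -1.04 in WN fish (adjusted p = 0.07).

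Of the HIF targets, 6 probes of 4 genes were tested, with a median difference of 0.29 (0.24 position-corrected, 0.15 without WH-5 and 0.45 without WN-3). Beside it stand 0.03 over all probes, 0.10 over the named probes and 0.16 over the entries called lower in WN than in CT fish. The names were drawn through the WN v CT contrast, in which this list's median was -0.69, so its direction is not independent evidence. At an unadjusted p under 0.05, 3.32% of all probes were higher in WH fish and 2.45% lower. Of the HIF target probes, 0 were called, 0 were lower and 1 was higher at that p. This was P4HB (C151R016), protein disulfide isomerase and the beta subunit of the enzyme that hydroxylates collagen, at -0.77, 0.11 and 0.68 in WH fish against -1.01, -0.63 and 0.26 in WN fish, a difference of 0.57 (0.03 to 1.11, adjusted p = 0.847). A second P4HB probe (C135R004) differed by 0.51. Both P4HB probes lie in rows 4 and 16, and position-corrected their differences were 0.26 and 0.36 with unadjusted p of 0.154 and 0.145. pdk3, a kinase that restrains pyruvate oxidation in mitochondria, had -0.53, 0.18 and 0.92 in WH fish and -0.46, 0.14 and 0.93 in WN fish. The pdk3 difference was -0.02 (-0.58 to 0.53), while pdk3 was above CT by 1.05 in WH fish (adjusted p = 0.0215) and by 1.08 in WN fish (adjusted p = 0.0204). NDRG1, a stress gene that hypoxia induces in mammals, differed by 0.01 and 0.38 at its 2 probes, and INSIG1, which restrains sterol synthesis, by 0.21.

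In glycolysis and its neighbours, 6 probes of 5 genes had a median difference of 0.40 (0.28 position-corrected), with 1 higher and 0 lower in WH fish at an unadjusted p under 0.05. Over all probes the median was 0.03, with 3.32% higher and 2.45% lower. Over the named probes it was 0.10, with 7.95% higher and 2.87% lower. The names were drawn through the WN v CT contrast, in which the list's median was -0.60, so its direction is not independent evidence. The aldolase gene ALDOA (C205R054) had -0.49, 0.08 and 0.56 in WH fish, against -0.84, -0.52 and -0.02 on the 5 WN arrays with a value. Every WH fish lay above the WN median, and the difference was 0.52 (0.08 to 0.95, unadjusted p = 0.0214, adjusted p = 0.847; position-corrected 0.41). gck, glucokinase, which traps glucose in the liver cell, differed by 0.67 with an interval of -0.59 to 1.92. The triose phosphate isomerase gene TPI1 differed by 0.68 at one probe (C226R011, row 11) and by -0.24 at the other (C266R142, row 142), while GAPDH differed by -0.16 and PCK1, which controls the making of new glucose, by 0.28.

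Probes of mitochondrial respiration lay to both sides of 0. Over the 18 probes the median difference was 0.15 (0.03 position-corrected). At an unadjusted p under 0.05, 1 was higher and 1 lower in WH fish (5.56% each), beside 3.32% and 2.45% of all probes. ndufa4 (C097R143), a small subunit of the respiratory chain, had -2.54, -1.27 and 1.06 in WH fish, against -0.09, 0.28 and 0.92 in WN fish and -1.96 (median) in CT fish. Of the WH fish, 1 lay above all WN fish and the others were mostly below them, and the difference was -1.38 (SE 0.49, interval -2.39 to -0.37, adjusted p = 0.847; -1.28 position-corrected). Within the 3 slides that held both groups, ndufa4 differed by -0.53, 0.91 and -2.57, so its sign was not shared by the slides. The first slide held WH-6 and WN-6, the second WH-1, WN-2 and WN-4, and the third WH-3, WH-5, WN-3 and WN-5. WH-2, WH-4 and WN-1 enter no slide difference. Slide differences, here and below, rest on few fish of the same data and are no further test. Of 74 probes named by rule with a difference on all 3 slides, 43 had the same sign on all 3. Among the qPCR genes with the largest differences, this held for 3 of 9. ndufa4 was above CT by 1.98 in WN fish (adjusted p = 0.0191) and by 0.59 in WH fish (adjusted p = 0.584). ATP5SL, described as distal membrane-arm assembly complex protein 2, differed by 0.50 (C162R019, row 19; 0.27 position-corrected) and 0.45, and COX7A2L, which joins respiratory complexes, by -0.49. The 13 probes of the tricarboxylic acid cycle, among them the succinate dehydrogenase genes SDHA, SDHC and SDHD and the malate dehydrogenase gene MDH2, lay between -0.15 and 0.27, all with intervals within -1 to 1. The 4 erythrocyte and haem probes of ALAS2 and UROS lay between -0.09 and 0.21, also within that bound. For the genes of haem synthesis and of the tricarboxylic acid cycle that were measured, a 2-fold difference between WH and WN fish was thus outside the interval.

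The largest difference of a named gene was that of the probe listed as igfbp2b1, a gene which codes for a liver protein that binds insulin-like growth factors and limits their use. Whether the probe tells igfbp2b1 from its paralogues was not tested. igfbp2b1 (C206R122) had -2.80, -1.77 and 1.28 in WH fish, against -1.35, 1.04 and 1.72 in WN fish and -3.28, -2.46 and -1.80 in CT fish. Of the WH fish, 4 lay below every WN fish and 2 among them. The difference was -1.99 (SE 0.56, interval -3.15 to -0.82, limma unadjusted p = 0.00189, adjusted p = 0.781), and -1.95 position-corrected. Against CT, igfbp2b1 was higher by 1.23 in WH fish (adjusted p = 0.246) and by 3.22 in WN fish (adjusted p = 0.00129). The slides gave -1.14, 1.09 and -3.63, and thus did not share a sign. The tank means were -1.19 and -1.27 in WH fish against 1.42 and 0.10 in WN fish, which do not overlap.

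DIO3, the deiodinase that inactivates thyroid hormone and that hypoxia induces in mammals, was lower in WH than in WN fish at both of its probes. At C203R076 the values were -3.55, -2.66 and -0.68 in WH fish, against -2.46, -0.58 and 1.17 in WN fish, a difference of -1.63 (interval -2.68 to -0.58, adjusted p = 0.831; -1.68 position-corrected). At C224R136 they were -2.40, -1.89 and -0.23 in WH fish, against -1.42, -0.74 and 0.23 in WN fish, a difference of -0.85 (-1.66 to -0.04, adjusted p = 0.847; -0.80 position-corrected). All 3 slides were negative at both probes, with -2.78, -2.22 and -1.74 at the first and -2.08, -1.43 and -0.86 at the second. Each slide difference rests on few fish. Against CT, the DIO3 probes passed in WH fish, by -2.76 (adjusted p = 0.00169) and -1.85 (adjusted p = 0.00596), and not in WN fish, by -1.13 (adjusted p = 0.223) and -1.0 (adjusted p = 0.156). The growth and hormone list, which also holds the signalling kinase JAK2 at 0.32, has 4 probes of 3 genes and had a median of -1.24. The igfbp2b1 probe and both DIO3 probes were the 3 of 4 lower at an unadjusted p under 0.05, beside 2.45% of all probes, and 0 were called.

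Heat shock genes had a small median difference between the warm groups, with wide intervals for many of them. The 28 probes of heat shock proteins and chaperones had a median difference of 0.17 (0.12 position-corrected), and 16 had an interval within -1 to 1. At an unadjusted p under 0.05, 2 of the 28 (7.14%) were higher and 0 lower in WH fish, beside 3.32% and 2.45% of all probes. Their median against CT was 1.44 in WH fish and 1.41 in WN fish. hsp90aa1 (C182R027), the stress-induced cytosolic chaperone, had -0.04, 0.39 and 0.62 in WH fish, against -1.14, -0.18 and 0.52 in WN fish and -2.50, -1.63 and -1.02 in CT fish. Its warm groups overlapped with a difference of 0.61 (0.03 to 1.2, unadjusted p = 0.041, adjusted p = 0.847), which was 0.44 position-corrected with an unadjusted p of 0.109. HSPE1 (C006R026), the small chaperonin of mitochondria, had -0.10, 0.19 and 0.77 in WH fish and -1.04, -0.30 and -0.17 on the 5 WN arrays with a value, a difference of 0.69 (0.21 to 1.17, unadjusted p = 0.00715, adjusted p = 0.847; position-corrected 0.55). hsp70 (C007R083) differed by -0.40 (-1.06 to 0.25), and HSF1, the master regulator of the heat shock response, by -0.65, -0.63 and -0.45 at its 3 probes, none at an unadjusted p under 0.05, and the first of these was -0.31 without WN-3. The unfolded protein response list held 7 probes with a median of 0.26. Of these, 1 (14.3%) was higher at an unadjusted p under 0.05, the P4HB probe named above, beside 3.32% of all probes. ATF3, a stress transcription factor, differed by 0.52 (-0.20 to 1.23). The 13 antioxidant probes lay between -0.45 (prdx6, a peroxiredoxin) and 0.21 (GSR, which regenerates glutathione), with a median of -0.06, 0 at an unadjusted p under 0.05 in either direction and every interval within -1 to 1.

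Most proteasome subunits had somewhat higher values in WH than in WN fish, none of them called. Of 66 probes of 24 genes, 56 had a positive difference, beside 54.7% of all probes tested, and the median was 0.15, also after position correction. At an unadjusted p under 0.05, 8 probes (12.1%) were higher and 0 lower, beside 3.32% and 2.45% of all probes, and position-corrected 2 were higher and 0 lower. The names come from the list of probes that differed between WN and CT fish, and among all entries called lower in WN than in CT fish 14.4% were higher in WH fish at that p and 281 of 368 had a positive difference, so the direction is not independent evidence and the share is no result about the proteasome. Against CT the list's median was -0.55 in WH fish and -0.78 in WN fish. PSMB7 (C135R028), a catalytic subunit of the core, had -0.64, 0.01 and 0.27 in WH fish, against -1.09, -0.59 and -0.40 in WN fish, a difference of 0.59 (0.20 to 0.98, adjusted p = 0.847; position-corrected 0.40). PSME1 (C142R012), an activator cap linked to antigen processing, had -0.21, 0.27 and 0.53 in WH fish, against -1.58, -0.43 and 0.18 in WN fish, a difference of 0.71 (0.17 to 1.24; position-corrected 0.48). The other probes past the unadjusted threshold, PSMD8, PSMA1, PSMA2, PSMA4, PSMB5 and a second PSMB7, differed by 0.39 to 0.62 and lie in rows 4 to 48.

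Amino acid metabolism had the highest median of the lists. All 10 probes of 7 genes were above 0 with a median of 0.46 (0.30 position-corrected), 4 higher and 0 lower in WH fish at an unadjusted p under 0.05, and 2 higher position-corrected. Beside these stand 54.7% above 0 and 3.32% higher over all probes, and 281 of 368 above 0 and 14.4% higher among the entries called lower in WN than in CT fish, and the names were drawn through that contrast. MTHFD1 (C062R014), an enzyme of folate one-carbon metabolism, had -0.69, 0.20 and 0.94 in WH fish, against -1.50, -0.68 and 0.20 in WN fish, a difference of 0.77 (0.15 to 1.39, adjusted p = 0.847; position-corrected 0.57), and a second MTHFD1 probe differed by 0.35. SHMT2, which moves the carbon of serine to folate in mitochondria, differed by 0.64 (C101R020) and 0.62 (C252R161), and the second of these lies in row 161, where the array slope runs the other way, with 0.68 position-corrected (unadjusted p = 0.0389). ABAT, which breaks down the transmitter GABA, differed by 0.50 and 0.05 at its probes, and GOT2, the mitochondrial aspartate aminotransferase, by 0.43. Against CT the list's median was -0.26 in WH fish and -0.84 in WN fish.

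Of the immune genes, a pair of effectors stood highest in WH fish. camp-a (C234R046), the antimicrobial peptide cathelicidin, had -0.52, 0.28 and 2.26 in WH fish, against -1.55, -0.79 and 0.03 on the 5 WN arrays with a value and -2.83, -1.67 and 1.16 in CT fish. Its difference was 1.59 (SE 0.58, interval 0.38 to 2.80, limma unadjusted p = 0.0125, adjusted p = 0.847; 1.46 position-corrected). il8 (C183R028), the chemokine that draws in neutrophils, had -0.33, 0.96 and 2.84 in WH fish, against -1.02, -0.55 and 0.37 in WN fish, a difference of 1.39 (SE 0.53, interval 0.29 to 2.50, adjusted p = 0.847; 1.22 position-corrected). Both were positive on all 3 slides, by 1.55, 2.79 and 1.49 for camp-a and by 1.67, 1.86 and 1.87 for il8. Each slide difference rests on few fish. WN-4 had no camp-a value, so the camp-a difference of 1.55 was WH-6 minus WN-6 and that of 2.79 was WH-1 minus WN-2. Between the WH tanks, T1 was the higher for both genes, with tank means of 1.46 (T1) and -0.02 (T6) for camp-a and of 1.76 and 0.14 for il8, while the WN tanks were at -0.94 and -0.76 for camp-a and at -0.55 and -0.35 for il8. The leukocyte markers beside them differed by -0.01 to 0.52 with the highest, NCKAP1L, at an unadjusted p of 0.0507 (0.0496 position-corrected), and their part in these values was not tested. apod, a lipid-carrying lipocalin, differed by 1.00 (-0.15 to 2.16), at 2.83 above CT in WH fish (adjusted p = 0.0032) and 1.83 in WN fish (adjusted p = 0.0604). The slides gave -0.84, 2.29 and 0.88 for apod, and thus did not share a sign. Its tank means were 1.01 (T1) and -1.31 (T6) in WH fish and -1.63 (T2) and -0.67 (T5) in WN fish, which overlap. The 16 innate immunity probes had a median of 0.13, 2 higher (12.5%) and 0 lower in WH fish at an unadjusted p under 0.05. Beside this, 3.32% of all probes and 7.95% of the named probes were higher.

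In antigen presentation, 17 probes had a median of 0.18 (0.015 without WN-5) with 2 higher (11.8%) and 0 lower at an unadjusted p under 0.05. Of all probes 3.32% were higher, of the named probes 7.95%, and of the entries called lower in WN than in CT fish 14.4%. The names were drawn through the WN v CT contrast, in which the list's median was -0.60, so the direction is not independent evidence. The 2 probes were those of CTSS and PSME1, and PSME1 was counted under the proteasome as well. CTSS (C130R012), the protease that trims the invariant chain of MHC class II, had -0.06, 0.49 and 1.11 in WH fish, against -1.17, -0.58 and -0.04 in WN fish. The lowest WH fish lay just below the highest WN fish, and all others were apart. The CTSS difference was 1.11 (0.51 to 1.72, unadjusted p = 0.000962, adjusted p = 0.781; position-corrected 0.88), positive on all 3 slides at 1.15, 0.92 and 1.24, and the gene differed from CT by 0.23 in WH fish and by -0.89 in WN fish, neither called. mhcii itself differed by 0.53 (-0.12 to 1.18; 0.27 without WH-3).

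**Figure D4:**
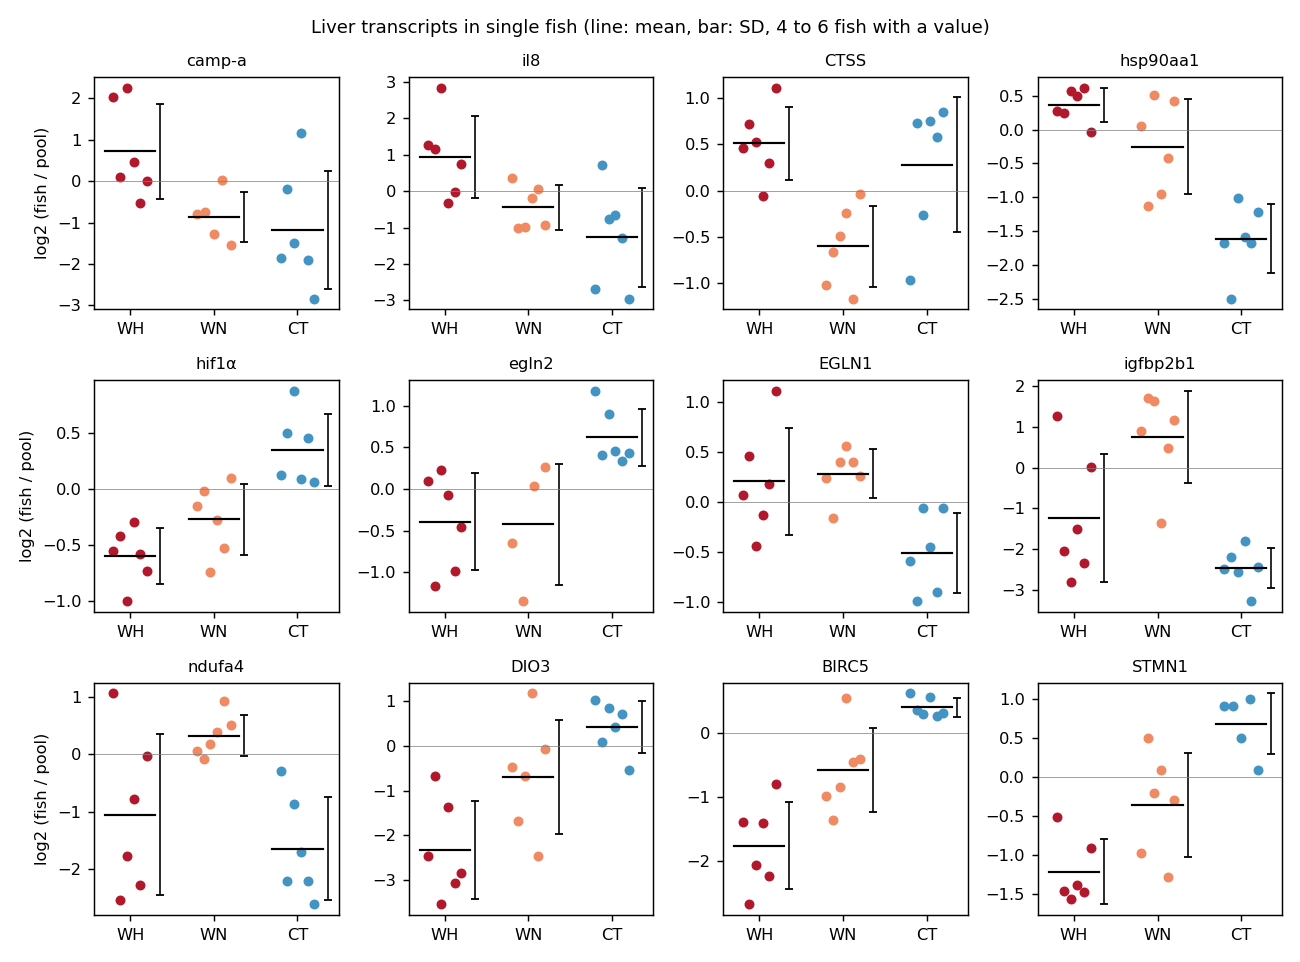
Log2 ratio of fish to pool (y axis) of 12 transcripts in single WH, WN and CT fish, with a line at the mean and a bar of 1 SD for the fish with a value. In hif1α, egln2 and EGLN1 the ranges of the warm groups overlap, with differences of -0.33, 0.03 and -0.07. The ranges of igfbp2b1 (-1.99), DIO3 (-1.63), il8 (1.39) and camp-a (1.59) overlap as well, at larger differences.

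Genes of dividing cells lay to both sides of 0, and none was called. The 16 cell cycle probes, of which 7 are of DUT alone, had a median of -0.19 (-0.13 position-corrected, -0.077 without WH-3), 0 higher and 2 lower at an unadjusted p under 0.05 (2.45% of all probes were lower). STMN1 (C001R139), a microtubule regulator of proliferating cells, had -1.57, -1.42 and -0.51 in WH fish, against -1.28, -0.25 and 0.49 in WN fish, a difference of -0.85 (-1.43 to -0.27, adjusted p = 0.847; -0.76 position-corrected), and its other probes differed by -0.40 and 0.20. PBK, a mitotic kinase, differed by -0.81 (-1.44 to -0.18; -0.68 position-corrected), while the 3 probes of PCNA, the replication clamp, lay between -0.06 and 0.05 and the probes of DUT, which keeps uracil out of DNA, between -0.36 and -0.13. MCM2 of the replication helicase, at 0.36, and CCND1, the cyclin that starts the cycle, at 0.17 lay on the other side. BIRC5 (C241R160), survivin, which serves in mitosis and blocks apoptosis, had -2.68, -1.73 and -0.80 in WH fish, against -1.37, -0.65 and 0.55 in WN fish and 0.27, 0.35 and 0.62 in CT fish. The BIRC5 difference was -1.18 (SE 0.30, interval -1.80 to -0.56, unadjusted p = 0.000673, adjusted p = 0.781; -1.11 position-corrected) and negative on all 3 slides. BIRC5 was below CT by -2.17 in WH fish (adjusted p = 9.56e-05) and by -0.99 in WN fish (adjusted p = 0.0563). Together with PARP1, a DNA repair enzyme at -0.46 (C018R132), it made up the 2 of 9 cell death probes (22.2%) that were lower at an unadjusted p under 0.05. Of all probes 2.45% were lower, and of the named probes 2.87%. casp8, which starts apoptosis, differed by 0.01.

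The 12 ribosomal probes had a median of -0.02, with RPS18 at 0.40. RPS9, at -0.65 (-1.18 to -0.12), was the only one at an unadjusted p under 0.05 (8.33%), beside 2.45% of all probes lower. Of the 4 lipid probes, LPL, lipoprotein lipase, differed by 0.48 (0.04 to 0.92), while HADHA of fatty acid oxidation differed by -0.21 and the fatty acid carrier FABP2 by -0.15. Over the 40 qPCR genes, the largest differences to either side were those of camp-a, il8, apod, gck and cldn3 (0.66, a tight junction protein) above and of igfbp2b1, ndufa4, prdx6, hsp70 and hif1α below. Of these 40 probes 4 were higher (10%) and 2 lower (5%) at an unadjusted p under 0.05, 0 were called, and 23 had an interval within -1 to 1. The shares were 3.32% and 2.45% over all probes, and 7.95% and 2.87% over the named probes.

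Values of the 6 WH and 6 WN fish did not overlap in 52 of 19669 probes with a value on all 12 arrays (0.264%), 30 higher (0.153%) and 22 lower (0.112%) in WH fish. Of all splits of 12 fish into 6 and 6, a share of 0.00216 leaves a given probe without overlap, and the count is near that share. Of the 30, 26 lay in rows 1 to 85 of 170 and 7 still did not overlap position-corrected, and of the 22, 3 lay there and 13 still did not overlap. Counted anew after position correction, 14 probes were higher (0.0712%) and 26 lower (0.132%) without overlap. With gene names there were 3 higher and 1 lower, named here after their values were seen. SNRPA1, a protein of the splicing machinery, had -0.24, -0.17 and 0.14 in WH fish against -1.01, -0.77 and -0.53 in WN fish, a difference of 0.65. SUDS3, of a histone deacetylase complex, differed by 0.67 and the NAD(P)HX repair gene APOA1BP by 0.25. AKTIP, an AKT-binding protein, had -0.38, -0.13 and -0.10 in WH fish against 0.24, 0.36 and 0.63 in WN fish, a difference of -0.58. Their unadjusted p were 0.0016 for SNRPA1, 0.00219 for SUDS3, 0.127 for APOA1BP and 0.000866 for AKTIP, and none was called. Position-corrected, the differences were 0.56 for SNRPA1, 0.44 for SUDS3, 0.16 for APOA1BP and -0.45 for AKTIP.

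Among probes without a gene name here, the smallest p and widest gaps were on the lower side. C210R158 had -1.24, -0.57 and -0.40 in WH fish, against -0.06, 0.65 and 1.45 in WN fish. The groups were apart, and this probe had the smallest p of all, with a difference of -1.26 (SE 0.24, interval -1.75 to -0.77, unadjusted p = 2.33e-05, adjusted p = 0.411; -1.16 position-corrected). C080R163 had -2.50, -1.70 and -1.27 in WH fish, against -1.09, -0.04 and 0.71 in WN fish, a difference of -1.67 (unadjusted p = 4.39e-05, adjusted p = 0.411; -1.52 position-corrected), and was below CT by -2.86 in WH fish and by -1.19 in WN fish, called in both. C080R165 differed by -1.21, C229R166 by -1.41, C102R131 by -1.19 and C074R096 by -1.28. On the higher side C264R141, in row 141, differed by 1.19 (WH -0.0019, 0.45 and 1.06, WN -2.09, -0.39 and -0.21; 1.2 position-corrected) and C205R090 by 0.82 (0.79 position-corrected). PTRH2, a mitochondrial peptidyl-tRNA hydrolase, and LOC106563387 were among the 5 smallest p of the higher side, with differences of 1.14 and 1.36. They lie in rows 12 and 14, and position-corrected the differences were 0.91 and 1.12. PTRH2 had a value on 5 WN arrays.

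Over all probes, WH and WN fish were not set apart on the first principal component. In an analysis of the 12 warm arrays, PC-1 held 14.8% of the variance, with scores of -5.64, 1.28 and 46.04 in WH fish and -148, 8.11 and 76 in WN fish (two-sided exact permutation test, p = 0.665). PC-2 held 14.1%, with scores of -3.45, 15.2 and 76.1 in WH fish and -130, -9.11 and 29.2 in WN fish (exact permutation test, p = 0.0649). The most distant fish were both WN. WN-2, the array with the steepest row slope, was at -148 on PC-1, and WN-5 was at -130 on PC-2. On the WN-5 array the median Cy5 signal was 14.0 times its background, and the median Cy3 signal 217.1 times its own. The Cy5 multiple, and its quotient by the Cy3 multiple (0.0645), were both the lowest of the 12 arrays. Without WN-5 the PC-2 difference was 3.88 in size, against 53.9 with it, while without WN-3 or WN-6 it was 64.1 and 70.9, with exact permutation p of 0.0433 and 0.0173. Position-corrected, PC-1 (15.3%) and PC-2 (13.2%) gave exact permutation p of 0.223 and 0.881. The distance of a fish from the mean of the other fish of its treatment (root mean square over probes) was 0.529 ± 0.028 in WH fish and 0.559 ± 0.063 in WN fish (SD, n = 6 each; exact permutation test, p = 0.333), and without WN-4 alone among the 12 arrays the permutation p was below 0.05, at 0.0303.

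**Figure D5:**
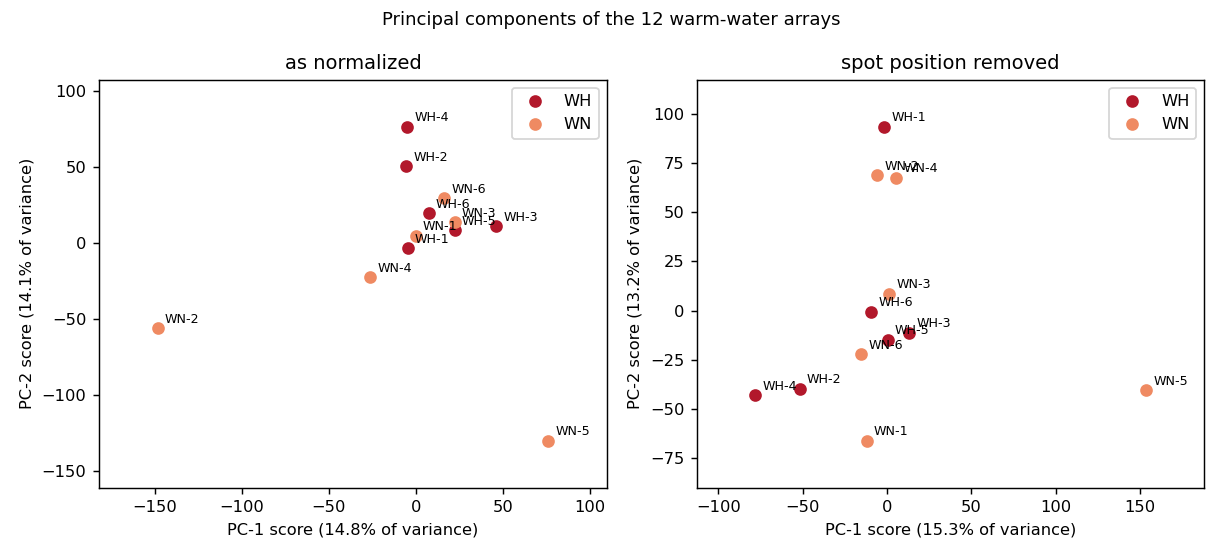
Scores of the 12 warm-water arrays on PC-1 (x axis) and PC-2 (y axis), as normalized (left) and after the spot position was removed (right), coloured by WH and WN. WN-2 stands apart at -148 on PC-1 on the left but not on the right (-5.89), and WN-5 stands apart in both.

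Contrasts between tanks of one treatment set 3 fish against 3, so their counts cannot be read against those of 6 against 6 fish. Between the tanks of WH fish (T6 minus T1), 480 probes were higher and 450 lower at an unadjusted p under 0.05 (3.9% of probes), with 0 called, and between the tanks of WN fish (T5 minus T2) 710 were higher and 550 lower (5.28%), with 1 called. Over the whole fit, the correlation among fish of 1 tank was -0.05. With 2 tanks per treatment, a comparison of tank means cannot reach an exact p below 0.333. Between arrays, flagged spots made up 9.28% to 12.7% in WH arrays and 8.93% to 17.3% in WN arrays, and detected probes 63.2% to 81.1% and 58.8% to 81.7%.

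Some probes were detected mainly in 1 warm group. Detected here means unflagged and above background by 2 background SDs in Cy5 alone. A flagged spot thus counts as not detected, and the part of flags in these counts was not tested. Of 43689 probes, 82 were detected on at least 5 of 6 WH arrays and at most 1 WN array, and 90 the other way round. The split of 6 arrays to 0 was seen for 1 unnamed probe in WH fish (C155R032) and for EFR3A in WN fish (C119R070). EFR3A, a protein that anchors a lipid kinase at the plasma membrane, was detected on 0 WH arrays, 6 WN arrays and 2 CT arrays. It was named here after its values were seen. With 3 background SDs in place of 2 as the limit, the counts were 250 in WH and 35 in WN fish, so that which group had more depended on the limit.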

How the data were processed

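Scanner gain was balanced by hand between channels by the authors, who read out spots with ImaGene. Their deposited scanner output gives, per spot and channel, an intensity, a local background and quality codes, none of it normalized. The deposited table holds the authors' log2 ratios of Cy5 to Cy3, background-corrected and loess-normalized within arrays, with flagged spots removed and probes absent on more than 25% of arrays left out (17072 probes with values). It served as an alternative, and correlated with the values used here at 0.959 to 0.996 per array.

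From the intensities of 45220 spots (43689 probes), spot medians were corrected by normexp (offset 50) and loess within arrays in limma (version 3.58.1, R version 4.3.3, data.table version 1.17.8, statmod version 1.5.0), and flagged spots were set to missing. Probes above background by 2 background SDs in either channel on 14 of 18 arrays (75%) were tested, in a limma fit of 3 groups with Benjamini-Hochberg adjustment and a threshold of 0.05. Missing values were not imputed, and principal components used the 19669 probes with 12 values. The fits were tested on simulated data. Exact permutation tests were two-sided over the 924 splits of 6 against 6 fish. The surface of the spot position was a robust loess of degree 1 and span 0.2 per array.

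Genes were named by rule: the oxygen sensing list and HIF targets, the 10 widest non-overlapping probes to each side, the 5 smallest p to each side, the 5 largest differences of qPCR genes to each side, and per list the 3 largest members and those past the unadjusted threshold. Not every probe so chosen is given above, among them FKBP5 of the heat shock list (-0.65) and PSMC6 of the proteasome list (0.63). Other list members were given beside the chosen ones. Members and lists were chosen with earlier results of these data known. Symbols came from the study's tables, with 1507 probes having an entry, and 1328 entries matched a RefSeq gene of Ssal_v3.1. One gene of the erythrocyte and haem list is not reported here. The SAM procedure was not run. Replicate numbers did not pair the fish. Precision is limited by the number of arrays.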

Additional observations from a re-analysis of the deposited data

Results flagged for a closer look

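In groups of 3 to 6 fish, 15 of 172 counted had 1 fish far from the others by Dixon's criterion at 95%. Chance alone gives about 1 in 20 for independent groups not chosen by their values. These groups share the same fish, and most of their probes were chosen by these values, so the 15 cannot be read against that share. RPL19 in WN fish, with 3 values, is in the count but was too small a group for the criterion. All values are log2 ratios of fish to pool. Of the named genes, P4HB (C135R004) had a WH fish at -0.57, PSMA4 one at 0.74, PSMD8 one at 0.28, ATP5SL (C162R019) one at -0.86 and RPL19 one at -1.49. Among WN fish, the LOC106563387 probe had a fish at 0.88 and GOT2 one at -0.92. Of the unnamed probes, the far WH fish were at 0.68 (C108R010), 0.93 (C121R012), 1.00 (C264R025), 1.65 (C254R073) and -2.06 (C043R074), and the far WN fish at 2.05 (C230R116), 2.36 (C112R123) and 0.90 (C188R162). The far values came from 8 fish, at most 3 from any of them (WH-4 and WH-6).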

How the results depend on the processing

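With 0 probes called, the WH v WN result was the same in 19 of the 20 settings that kept all 18 or all 12 warm arrays, and in each fit with 1 array left out (smallest adjusted p 0.116). With tank means as the unit 1 probe was called, and the WN v CT and WH v CT counts were 596 and 697. The number of probes at an unadjusted p under 0.05 was 2515 with no detection filter, 858 with detection on all 18 arrays and 762 in the authors' values with the spot position removed. These settings tested different numbers of probes, so the counts are not shares and cannot be read against each other. Probes without overlap numbered 32 in the authors' values, 34 with the background subtracted, 25 with median centring, 31 over the authors' probes, and 20 in the authors' values with the spot position removed. The counts over the authors' values or probes rest on at most 17072 probes, fewer than the 19669 of the main count. Median centring gave 473 calls for WN v CT and 497 for WH v CT, and slide as a fixed block 693 for WH v CT. Without background correction, 54.5% of intervals lay within -1 to 1. The PC-2 difference was 60.9 with no detection filter (exact permutation p = 0.0455). The tank contrast of WN fish called 2 probes in the authors' values and 0 with detection on all arrays. At 3 background SDs, 250 probes were detected mainly in WH fish and 35 mainly in WN fish. Differences close to 0 had the other sign in places: pdk3 was 0.026 in the authors' values, 0.0085 with spot means, 0.0019 with saturated spots kept and 0.012 in the authors' values with the spot position removed. egln2 was -0.20 with array weights, -0.17 with the spot position removed and -0.20 with both the authors' values and that removal. NDRG1 (C132R147) was -0.0089 without background correction and -0.0059 with spot means, EGLN1 was 0.075 with median centring, and FABP2 was 0.18 with slide as a fixed block. For all of these the cause was not tested.

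With each array left out in turn, the WN v CT count was 754 (without CT-6) to 1165, the probes without overlap 80 to 119 (fewer fish overlap less often by construction), the calls between WN tanks 0 to 2, the PC-2 difference 3.88 to 70.9 in size and the difference in spread -0.063 to -0.014. The differences were -0.28 to 0.26 for egln2, -0.39 to 0.030 for FABP2, -0.051 to 0.37 for INSIG1, -0.26 to 0.056 for EGLN1, -0.18 to 0.13 for pdk3 and -0.080 to 0.15 for NDRG1 (C132R147). The replicate numbers in the titles do not pair fish (same-number correlations of -0.0779 to 0.118, 1 of 6 above 0.1), and with the replicate block 0 probes were called (smallest adjusted p = 0.0612), 1414 had an unadjusted p under 0.05, and the calls against CT were 1034 for WH and 1006 for WN. Of the settings of named probes, 3017 gave the same sign and 29 the other. With 1 array left out, 17 of 82 probe differences and 16 of 21 list medians moved by over 1.5 times or turned, none of them called. The median Cy5 signal over background was 14.0 on the WN-5 array and 45.3 to 110.5 on the other warm arrays, and its part in these values was not tested.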

Other observations

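With tank means as the unit, 2 tanks against 2, the 1 probe called was C104R106, which has no gene name here and was singled out after its values were seen. Its tank means were -4.61 and -4.84 in WH fish, against -1.49 and -1.89 in WN fish, a difference of -3.04 (limma adjusted p = 0.007). Single fish spread far more widely, with -5.94, -4.30 and -3.75 in WH fish (lowest, median, highest), -5.10, -2.49 and 2.11 in WN fish and -5.36, -4.38 and -0.22 in CT fish. Over the fish, the same probe had a difference of -2.97 with an adjusted p of 0.847.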
